A study of Allium sativum with 18 samples.

Results

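The question was which genes of a garlic bulb changed differently in its 2 tissues as the bulb passed from enlargement into dormancy. Garlic (*Allium sativum*) plants labelled Chalingzipisuan were sampled as dormant bulbs and as enlarging bulbs, and basal and storage clove were parted by hand. The 12 libraries of this comparison were chosen by their tissue and stage labels from the 18 of the study, 3 biological replicates in each of 4 groups: basal clove of dormant bulbs, basal clove of enlarging bulbs, storage clove of dormant bulbs and storage clove of enlarging bulbs. The other 6 libraries came from germinating bulbs with short shoots. Enlarging bulbs were collected about the time the flower stalk had emerged. No group carried a treatment or a genetic change, and the labels do not say how many bulbs or plants made up a replicate. In such bulk tissue, fewer cells of a type and less RNA per cell cannot be told apart.

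A garlic clove is a short stem base with a bud, enclosed by a swollen leaf that stores reserves. While the bulb enlarges, the storage leaf takes up sugars and lays them down, largely as fructans, and it makes the sulfur compounds behind the flavour of garlic. In dormancy the bud stops growing although it stays alive, and at germination the reserves are drawn on by the growing shoot and roots. The labels do not define the anatomical border between basal and storage clove. The gene IDs come with no names or descriptions, so neither tissue could be checked against marker genes and no gene function or sequence is given here.

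The interaction is a difference of differences. For each gene the change in storage clove (dormant minus enlarging) was subtracted from the change in basal clove (dormant minus enlarging), on the scale log2(FPKM + 1). FPKM is the number of fragments of a gene scaled to the length of its model and to the depth of the library. A positive interaction therefore means that basal clove changed more upward, or less downward, than storage clove. The same number is the basal minus storage difference in dormant bulbs minus that in enlarging bulbs. The limma test used moderated variances from all 18 libraries, and a gene was called when its p-value, adjusted by Benjamini and Hochberg over the 30530 genes tested, was below 0.05. P-values rest on the spread between the 3 libraries of a group, pooled over all 6 groups, so no group has an estimate of spread of its own.

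Depth was uneven between the groups. Whole reads recovered from the steps of the FPKM values summed to between 19611684 and 20897436 per library in dormant basal clove, 17933342 and 19335572 in enlarging basal clove, 6540146 and 7155009 in dormant storage clove, and 11600094 and 12747904 in enlarging storage clove. For a gene of 1 kb, 3 reads correspond to 0.419 to 0.459 FPKM in dormant storage clove, the shallowest group. Such limits cover counting error only. Storage enlarging replicate 2 stood nearer to basal clove than its replicates did, with a mean Spearman correlation of 0.895 with the enlarging basal libraries, against 0.868 and 0.857. Without that library 4989 genes had a positive and 3227 a negative called interaction, against 5375 and 3345 with it.

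The change into dormancy differed between the tissues in 8720 genes, 28.6% of those tested. In 5375 of these (17.6% of the genes tested) the change was more positive in basal clove, and in 3345 (11.0%) it was more positive in storage clove. The median size of a called interaction was 0.87 on the log2 scale, and its standard error had a median of 0.26 over the genes tested. Positive interactions of at least 1 were called for 2329 genes (7.63%), and negative ones of that size for 1117 (3.66%). At 2 or more there were 380 and 94 genes, at 3 or more 61 and 11, and at 4 or more 10 and 5.

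On the deposited scale the excess of positive interactions grew in proportion up to a size of 3 or more, but it depended in part on scaling. At 4 or more it was proportionally smaller, with 10 and 5 genes. Of the calls, 61.6% were positive on the deposited scale. Median-ratio scaling gave 55.2%, and quantile normalization 48.8%. The median interaction of all genes tested was 0.10 on the deposited scale and -0.02 on the quantile scale. Among calls of at least 1 the positive share was 67.6%, 61.6% and 51.9% under the same treatments. At 3 or more, positive calls outnumbered negative ones under each scaling, with 61 and 11 genes, 51 and 11, and 41 and 14. The fit of recovered reads weighted by voom, which compresses low values less, gave 225 and 72 genes at 3 or more.

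**Figure D1:**
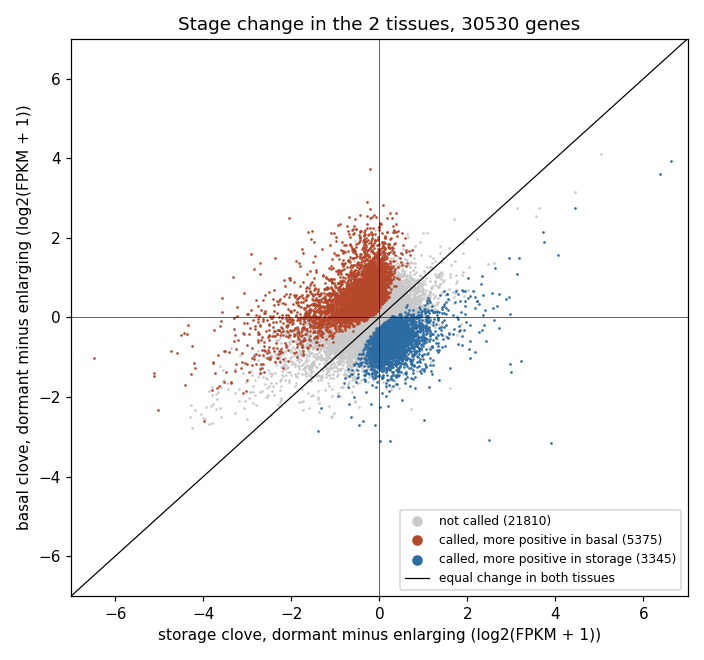
Each point is one of the 30530 genes, with its dormant minus enlarging change in storage clove on the x axis and in basal clove on the y axis, both in log2(FPKM + 1). The 5375 genes with a called positive interaction lie above the diagonal of equal change and the 3345 with a negative one below it, and the 21810 grey genes were not called.

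The 12 values of a gene were also read directly. For most called genes the values separated, in the sense that the least favourable pairing of single libraries still gave the sign of the interaction. Separation was read from the same values as the call, so it describes the calls and is no second test. Genes that were not called could separate too. Separation held for 90.3% of calls: 4849 genes (15.9% of those tested) with a positive and 3022 genes (9.90%) with a negative interaction. All 61 positive and all 11 negative calls of 3 or more separated. Taking the difference of differences in FPKM instead of on the log scale turned the sign of 32 called genes, 0.367% of them.

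The gene with the largest positive interaction, Asa5G02473.1, fell to a few reads in dormant storage clove and fell far less in basal clove. In basal clove it stood at 27.1, 15.2 and 34.6 FPKM in dormant bulbs and at 42.0, 51.2 and 59.6 FPKM in enlarging bulbs. In storage clove it stood at 1.07, 0.659 and 0 FPKM in dormant bulbs and at 146.6, 142.1 and 114.5 FPKM in enlarging bulbs. The stages did not overlap in either tissue, and the order of the tissues turned round, since storage clove was the higher tissue in enlarging bulbs and the lower in dormant bulbs. The dormant storage values rest on 5 reads over 3 libraries, against 2119 reads in enlarging storage clove, a ratio of enlarging over dormant of 239 per unit of depth with an exact 95% counting interval of 102 to 738. The interaction was 5.46 (SE 0.39, limma adjusted p = 3.7e-07), made of a change of -1.02 in basal and -6.48 in storage clove. In germinating bulbs the gene was near 0 in both tissues, from 5 reads in basal and 7 reads in storage clove.

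Asa7G01645.1 had the next largest positive interaction and moved in opposite directions. It reached 43.8, 92.6 and 47.0 FPKM in dormant basal clove, against 7.45, 8.82 and 12.7 FPKM in enlarging basal clove. In storage clove it was at 0.511, 0.236 and 0.234 FPKM when dormant and at 7.01, 2.23 and 5.45 FPKM when enlarging. The tissues did not overlap at either stage, but in enlarging bulbs the lowest basal value lay just above the highest storage value. The interaction was 4.55 (SE 0.44, limma adjusted p = 3.6e-06). The dormant storage values rest on 8 reads, and the ratio of enlarging over dormant was 15.5 per unit of depth, with an exact 95% counting interval of 7.71 to 36.3.

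The largest interaction of either sign was negative and belonged to an abundant transcript. Asa7G03238.1 was at 88.2, 48.5 and 84.1 FPKM in dormant basal clove and at 810.2, 510.5 and 639.4 FPKM in enlarging basal clove. It was at 1308, 2737 and 2161 FPKM in dormant storage clove and at 101.1, 137.4 and 163.3 FPKM in enlarging storage clove. Enlarging basal clove was thus above enlarging storage clove in every library, and dormant basal clove below dormant storage clove in every library. On group means the gene was 8.87-fold lower in dormant than in enlarging basal clove and 15.4-fold higher in dormant than in enlarging storage clove, and the interaction was -7.06 (SE 0.48, limma adjusted p = 2.6e-07). At germination it was low in both tissues, with a mean of 8.76 ± 4.13 FPKM in basal clove, against 6.37 ± 0.84 FPKM in storage clove (SD, n = 3 each).

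Asa3G02919.1 repeated that form at a lower level. Dormant basal clove had 1.57, 1.93 and 1.62 FPKM and enlarging basal clove 28.1, 17.8 and 20.6 FPKM, while dormant storage clove had 35.7, 27.0 and 36.2 FPKM and enlarging storage clove 4.33, 2.93 and 9.23 FPKM. The order of the tissues turned round between the stages without overlap at either. Its interaction was -5.57 (SE 0.38, limma adjusted p = 2.8e-07).

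**Figure D2:**
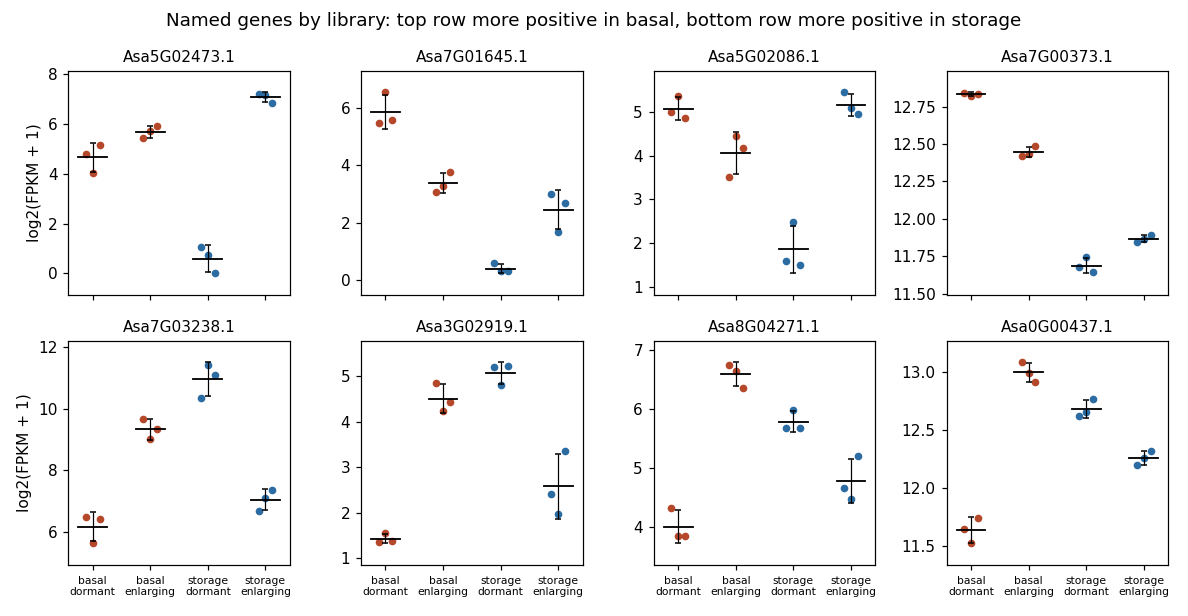
Points are the 3 libraries of a group in log2(FPKM + 1), with the mean and SD as black bars, for 4 genes with a positive interaction (top) and 4 with a negative one (bottom), and the y axes do not all start at 0. Asa7G03238.1 shows the crossing most plainly, with dormant basal clove lowest and dormant storage clove highest of the 4 groups.

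Read by stage, the called interactions took 5 forms. In 4402 genes (50.5% of calls) the stage change was called in basal clove and missed the threshold in storage clove, with 2514 rises and 1888 falls. In 2050 genes (23.5%) it was called in storage clove and not in basal clove, with 1485 falls and 565 rises. In 1385 genes (15.9%) both changes were called and went in opposite directions, 854 rising in basal and falling in storage clove and 531 the other way. In 192 genes (2.2%) both tissues moved the same way by different amounts, and in 691 (7.9%) neither change alone passed. Over all genes tested, 16.5% rose and 15.0% fell in basal clove, and 6.14% rose and 14.1% fell in storage clove.

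Opposite movement had no stable direction across scalings. The 854 and 531 genes became 595 and 836 on the median-ratio scale and 585 and 812 on the quantile scale, although the total changed little (1431 and 1397). When every library was thinned to the depth of the shallowest one, 914 genes moved in opposite directions. The excess of falls over rises in genes called in storage clove only also rested on the deposited scaling, with 1485 falls and 565 rises becoming 1111 and 929 on the median-ratio scale and 876 and 920 on the quantile scale. Rises outnumbered falls among genes called in basal clove only under each of these scalings, and in the fit weighted by voom (2078 and 2039).

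Among genes that moved in opposite directions, Asa4G01649.1 rose in basal clove to 5.67, 4.38 and 11.7 FPKM in dormant bulbs, against 1.26, 1.90 and 1.55 FPKM in enlarging ones. In storage clove it fell to 2.07, 4.88 and 1.89 FPKM in dormant bulbs, against 32.9, 22.8 and 27.2 FPKM in enlarging ones. Dormant storage replicate 2, at 4.88 FPKM, lay above dormant basal replicate 2, so the dormant tissues overlapped. The interaction was 4.51 (SE 0.45, limma adjusted p = 4.5e-06). Later, at germination, both tissues were higher, averaging 32.1 ± 11.1 FPKM in basal clove, against 161.4 ± 36.6 FPKM in storage clove (SD, n = 3 each).

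Asa0G02391.1 moved the other way. It was at 9.41, 5.87 and 9.93 FPKM in dormant basal clove and at 37.6, 20.4 and 15.3 FPKM in enlarging basal clove, and at 435, 915.5 and 610.5 FPKM in dormant storage clove and 50.4, 38.8 and 235.3 FPKM in enlarging storage clove. Enlarging storage replicate 3 was well above its replicates. The fall in basal clove passed narrowly (limma adjusted p = 0.049), and the interaction of -4.36 (SE 0.71, limma adjusted p = 0.00031) became -5.16 without that library.

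A storage gene of very similar profile was Asa7G03273.1, called in storage clove only. It was named for its large interaction and is not typical, since genes that rose in storage clove only had a median interaction of -0.85. It had 2.60, 1.14 and 2.99 FPKM in dormant basal clove and 7.51, 6.15 and 4.04 FPKM in enlarging basal clove, against 136.8, 294.1 and 229.6 FPKM in dormant storage clove and 12.2, 12.2 and 65.6 FPKM in enlarging storage clove. The basal values were lower in dormant than in enlarging bulbs without overlap, but that difference did not pass (limma adjusted p = 0.099). Again enlarging storage replicate 3 was the high one. The interaction was -4.33 (SE 0.69, limma adjusted p = 0.00026), and -5.11 without that library. Both genes have a recovered coding length of 921 bp, which 48 IDs share, and the level of Asa0G02391.1 was between 2.66 and 5.14 times that of Asa7G03273.1 in all 12 libraries. This likeness was looked at after their values were seen. Whether reads could be divided between such IDs is not stated, so the pair is not counted as independent examples.

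In the positive direction, Asa2G04068.1 fell in storage clove only. It was at 38.7, 20.6 and 45.5 FPKM in dormant basal clove and at 26.0, 35.1 and 59.3 FPKM in enlarging basal clove, groups that overlapped. In dormant storage clove 1 read was counted over 3 libraries, giving 0.439, 0 and 0 FPKM, against 22.1, 30.7 and 16.0 FPKM and 291 reads in enlarging storage clove. The ratio of enlarging over dormant was 164 per unit of depth, with an exact 95% counting interval of 29.3 to 6520. The interaction of 4.17 (SE 0.45, limma adjusted p = 8.2e-06) depends on the added 1 FPKM and is no bound. In germinating bulbs no read was counted in basal clove and 3 were in storage clove.

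Genes called in basal clove only were the commonest form. Asa3G02784.1 rose to 205.9, 186.4 and 151.8 FPKM in dormant basal clove, against 15.1, 9.71 and 13.7 FPKM in enlarging basal clove, 14.1-fold on group means. Storage clove had 7 reads in its 3 dormant libraries and 16 in its 3 enlarging ones. A change in storage clove was not detectable at that depth, since the ratio of enlarging over dormant was 1.29 with an exact 95% counting interval of 0.503 to 3.71. The interaction was 3.94 (SE 0.50, limma adjusted p = 3.8e-05), but voom did not call it (adjusted p = 0.12). Many genes of this form were low in storage clove throughout: 573 of the 2514 that rose in basal clove only (22.8%) were under 1 FPKM in storage clove at both stages, against 14.5% of all genes tested.

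Asa7G02774.1 fell in basal clove only. It had 0.773, 0.435 and 0.596 FPKM in dormant basal clove, from 12 reads in all, and 19.6, 11.7 and 8.93 FPKM in enlarging basal clove. Storage clove had 35.7, 18.0 and 39.0 FPKM when dormant and 23.5, 30.04 and 21.5 FPKM when enlarging, groups that overlapped. The interaction was -3.34 (SE 0.70, limma adjusted p = 0.0022), and voom did not call it (adjusted p = 0.084). At germination basal clove had 41.6 ± 40.3 FPKM and storage clove 143 ± 28.7 FPKM (SD, n = 3 each), with the basal libraries at 26.6, 10.9 and 87.3 FPKM.

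**Figure D3:**
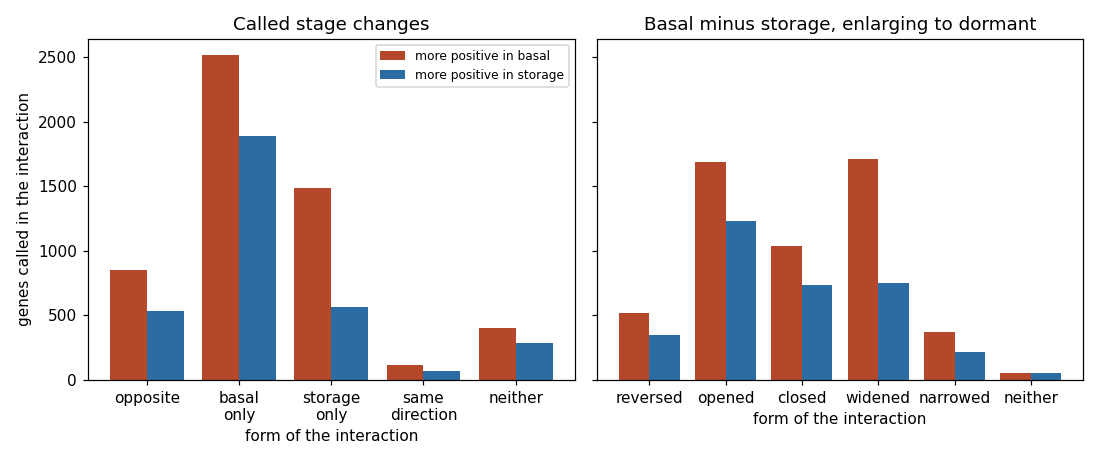
Bars give the number of genes called in the interaction, split by direction. On the left they are sorted by which stage changes were called, where the 2514 basal rises and 1888 basal falls stand highest, and on the right by what happened to the basal minus storage difference.

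The same interaction can be read as a change of the difference between the tissues. For 2916 genes (33.4% of calls) a difference was called in dormant bulbs but not in enlarging ones, 1684 of them higher and 1232 lower in dormant basal clove (1468 and 1471 on the median-ratio scale, 1251 and 1814 on the quantile scale). Another 2463 (28.2%) had a difference of the same sign at both stages that was wider in dormant bulbs, and 596 (6.8%) one that was narrower. In the widened form basal clove was the higher tissue in 1712 genes and the lower in 751, but with voom in 786 and 800. In 1772 genes (20.3%) a difference of enlarging bulbs was no longer called at dormancy. The order of the tissues reversed in 864 genes (9.9%), and 109 (1.2%) had a called difference at neither stage. Differences that opened or widened made up 5379 calls, against 2368 that closed or narrowed. An excess of the same direction was present among all genes tested, called in the interaction or not, of which 6095 opened and 6967 widened, against 4204 that closed and 3689 that narrowed.

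Reversals went both ways. In 519 genes basal clove was the lower tissue in enlarging bulbs and the higher in dormant bulbs, and in 345 the opposite was found. Which of these was larger depended on scaling, with 447 and 437 genes on the median-ratio scale and 406 and 505 on the quantile scale. Their median level in log2(FPKM + 1) among the 519 was 5.30 in dormant and 4.76 in enlarging basal clove, and 4.73 in dormant and 5.18 in enlarging storage clove. Among the 345 the medians were 4.82 and 5.62 in basal clove and 5.44 and 5.13 in storage clove.

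Asa5G02086.1 was a reversal toward basal clove. It had 31.1, 40.4 and 28.1 FPKM in dormant basal clove and 10.5, 21.1 and 17.1 FPKM in enlarging basal clove, and 1.99, 4.59 and 1.82 FPKM in dormant storage clove against 42.8, 33.0 and 30.3 FPKM in enlarging storage clove. The tissues did not overlap at either stage. Its interaction was 4.34 (SE 0.37, limma adjusted p = 1.1e-06), and 9 reads lay behind the dormant storage values. At germination the gene averaged 157.6 ± 25.7 FPKM in basal clove, against 284.7 ± 41.2 FPKM in storage clove (SD, n = 3 each, limma adjusted p = 0.0096), the order seen in enlarging bulbs.

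Asa8G04271.1 reversed toward storage clove. It had 19.0, 13.3 and 13.3 FPKM in dormant basal clove and 106.7, 99.7 and 81.3 FPKM in enlarging basal clove, and 50.5, 62.5 and 50.3 FPKM in dormant storage clove and 24.3, 21.1 and 35.6 FPKM in enlarging storage clove. Neither the tissues nor the stages overlapped. Its interaction was -3.60 (SE 0.34, limma adjusted p = 2.8e-06), and at germination both tissues were under 5 FPKM.

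The direction of the interaction varied with transcript abundance. Among genes with a mean of under 1 FPKM over the 4 groups 8.1% were called, 246 with a positive and 48 with a negative interaction. Genes of this class passed the filter (1 FPKM in 3 of 18 libraries) only through libraries above that mean, germinating ones included. What this selection does to the split of directions in the lowest class was not tested. The called share was 17.5%, 27.2% and 44% in the classes 1 to 5, 5 to 20 and 20 to 100 FPKM, and 56.4% at 100 FPKM or more. In that highest class negative interactions were the more numerous, 616 against 501. The positive share of calls was smaller in each class than in the one before it, at 83.7%, 77.4%, 64.5%, 56.7% and 44.9%. The lowest class stood above the highest under median-ratio scaling (81.3% and 38.5%), quantile normalization (58.9% and 40.8%), voom (66.1% and 41.8%) and at equal depth (79.1% and 44.7%).

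**Figure D4:**
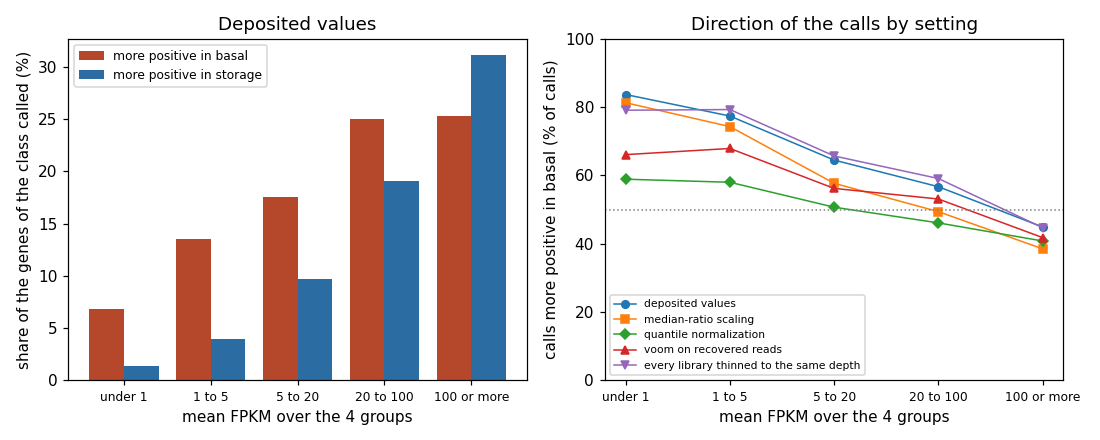
The left panel gives the share of genes called in each class of mean FPKM over the 4 groups, in each direction. The right panel gives the share of calls that were positive, which ran from 83.7% in the lowest class to 44.9% in the highest with the deposited values and was below 50% in the class of 100 FPKM or more under all 5 treatments.

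The largest shifts in absolute amount necessarily lay in that class, since a large difference in FPKM needs a high level. Asa0G00437.1 had the largest negative difference of differences in FPKM. It was at 3203, 2934 and 3414 FPKM in dormant basal clove and at 8687, 8161 and 7732 FPKM in enlarging basal clove, and at 6317, 6448 and 6993 FPKM in dormant storage clove and 4693, 4910 and 5099 FPKM in enlarging storage clove. Basal clove was the higher tissue in enlarging bulbs and the lower in dormant ones, with no overlap. Its interaction was -1.79 (SE 0.13, limma adjusted p = 4.3e-07), or -6694 FPKM.

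Asa7G00373.1 had the largest positive one in FPKM, 2155, with a modest interaction of 0.57 on the log2 scale (SE 0.11, limma adjusted p = 0.0013). It was at 7357, 7241 and 7303 FPKM in dormant basal clove and at 5479, 5528 and 5744 FPKM in enlarging basal clove, and at 3269, 3428 and 3196 FPKM in dormant storage clove and 3675, 3729 and 3806 FPKM in enlarging storage clove. The rise in basal clove was called (limma adjusted p = 0.0015). The 3 storage values were lower in dormant than in enlarging bulbs without overlap, but that difference did not pass (limma adjusted p = 0.12).

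Fewer genes were detected in dormant storage clove than in any other of the 4 groups. With every library thinned to 6539512 reads, 31874 to 32065 genes had a read in dormant basal clove and 31837 to 32125 in enlarging basal clove, against 29422 to 29985 in dormant storage clove and 30660 to 30968 in enlarging storage clove. The basal stages overlapped and the storage stages did not. The same held for genes at 1 FPKM or more, with 26609 to 26845 and 26561 to 26716 in basal clove and 24061 to 24536 and 24927 to 25362 in storage clove.

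As a share of all FPKM in a library, the called genes were a large part of the transcript pool. The 5375 genes with a positive interaction held 28.9% to 30.4% in dormant and 19.9% to 20.7% in enlarging basal clove, and 16.3% to 16.7% in dormant and 21.1% to 21.8% in enlarging storage clove. The 3345 genes with a negative one held 20.6% to 21.5% and 29.5% to 30.3% in basal clove, and 34.9% to 35.3% and 27.7% to 28.7% in storage clove. These genes were chosen on the same libraries, so the shares describe the size of the shift and test nothing. In both lists the enlarging tissues were within 3 percentage points of each other and the dormant tissues more than 12 apart.

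The 6 germinating libraries took no part in the contrast, although they contribute to the estimate of each gene's spread and to the filter. When only the 12 enlarging and dormant libraries were used, 28537 genes were tested, against 30530 here. Genes low in the earlier groups could thus be kept for their level at germination. What this selection does to the levels and tissue differences read at germination was not tested. The genes with a positive interaction held 29.5% to 31.4% of FPKM in germinating basal clove and 29.2% to 29.8% in germinating storage clove, near their share in dormant basal clove. The genes with a negative interaction held 13.2% to 14.1% in germinating basal clove and 15.2% to 16.7% in germinating storage clove, below their share in each earlier group. The 1485 genes that fell in storage clove only had a median level of 2.83 in dormant and 3.93 in enlarging storage clove in log2(FPKM + 1), and of 4.52 in germinating storage clove. All genes tested had medians of 2.99, 3.13 and 3.16 in the same groups. The higher level at germination was not particular to storage clove. In basal clove the 1485 genes had medians of 3.60 in dormant, 3.53 in enlarging and 4.25 in germinating bulbs. Those of all genes tested were 3.32, 3.34 and 3.21.

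**Figure D5:**
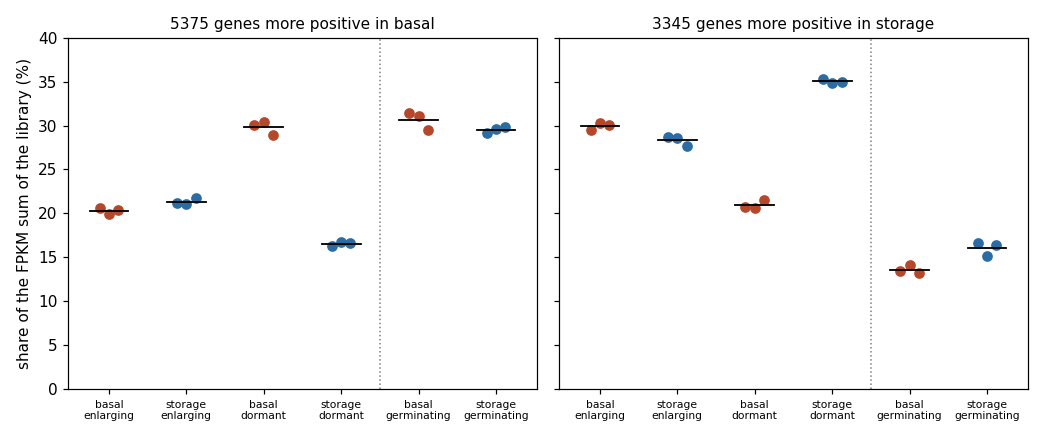
Points are libraries and bars group means of the share of the FPKM sum held by genes called with a positive interaction (left) and a negative one (right), in stage order, with the germinating libraries to the right of the dotted line. Dormant basal and dormant storage clove stand apart in both panels, and germinating clove of both tissues is near dormant basal clove on the left and below every other group on the right.

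The tissue difference of germinating bulbs was then read for the called genes. Here higher and lower mean that this difference was itself called (limma adjusted p below 0.05), and the remaining genes had no called difference. Basal clove was higher than storage clove at germination for 36.3% of the genes with a positive interaction and for 14.2% of those with a negative one, against 25.0% of all genes tested. It was lower for 30% and 60.7%, against 35.4% of all genes tested. These shares were not matched for abundance. The median level in germinating basal clove was 4.59 for positive and 3.92 for negative interactions, against 3.21 for all genes tested, in log2(FPKM + 1). Among the 380 positive interactions of 2 or more, 49.5% were higher and 24.5% lower in germinating basal clove. The 94 negative interactions of 2 or more did not show the pattern of all negative ones, since 34% were higher and 26.6% lower there. Genes that rose in basal clove only were higher there in 51.4% of cases, and genes that fell in basal clove only were lower there in 68% of cases. Genes whose order had reversed were more often lower than higher in germinating basal clove, whichever way they had reversed. Of the 519 that became higher in dormant basal clove, 10.2% were higher and 47% lower in germinating basal clove. Of the 345 that became lower, 11% were higher and 64.1% lower. All these germinating shares were read on the deposited scale only, where the median basal minus storage difference of all genes tested was itself -0.165. That median was -0.224 among the 519, near the value of all genes, and -0.453 among the 345.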

How the data were processed

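RNA was sequenced from total RNA of hand-separated clove tissue, with NEBNext libraries per the labels' protocols. One table of FPKM values for 57561 gene IDs in 18 libraries was deposited by the authors. HISAT2 is named in the submitters' processing notes. Its version, the read counter, genome build, annotation and use of strand: not given in the sources used here. Whole reads were recovered from the FPKM steps: library totals were those at which gene lengths became whole, and the reads then summed to 99.99% of each total, with 100% of the 595800 values above 0 whole within 0.01 reads. The search for whole lengths itself favours whole reads. Of the genes with over 100 reads, the recovered length was divisible by 3 in 95.2%, hence coding length.

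Genes with at least 1 FPKM in at least 3 of 18 libraries were kept, 30530 in all. A limma 3.58.1 model (R 4.3.3) of the 6 group means on log2(FPKM + 1), with 12 residual degrees of freedom and a variance trend, gave the interaction. This scale understates changes of low genes. The code was tested on simulated data.

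Genes named were, among called genes whose 12 values separate and whose highest group mean is at least 10 FPKM, the 2 largest interactions each way, and then the largest remaining one each way among genes moved in opposite directions, with a reversed tissue difference, called in basal clove only, called in storage clove only, and by difference of differences in FPKM. Replicate pairs differed by more than sampling noise (chi-square per gene of 2.68 to 9.98), so each library counted once. Members, rule and tests were chosen with earlier results of these data known. Alternatives were another pseudocount, filters, scalings, weights, equal depth, a replicate block and leaving out each library.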

Additional observations from a re-analysis of the deposited data

Results flagged for a closer look

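For each gene named in the report the stage change differed between the tissues by the limma test of the interaction itself, which is what marks it here. The interactions on the log2(FPKM + 1) scale were 5.46 for Asa5G02473.1, 4.55 for Asa7G01645.1, 4.51 for Asa4G01649.1, 4.34 for Asa5G02086.1, 3.94 for Asa3G02784.1, 4.17 for Asa2G04068.1 and 0.57 for Asa7G00373.1. In the other direction they were -7.06 for Asa7G03238.1, -5.57 for Asa3G02919.1, -4.36 for Asa0G02391.1, -3.60 for Asa8G04271.1, -3.34 for Asa7G02774.1, -4.33 for Asa7G03273.1 and -1.79 for Asa0G00437.1. Groups of 3 libraries are too small for a test of single outlying libraries.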

How the results depend on the processing

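The direction of each named interaction held in all 23 alternatives, but in most of them it was fixed in advance. Named genes were chosen for values that separate, so leaving out or weighting libraries could not turn the sign. Other filters, a fit of the 12 libraries alone, a fit without variance trend and the replicate block leave the estimate itself unchanged. Only the other pseudocount, the scalings, voom and equal depth could have turned the sign. Of the 14 named interactions, 12 stayed called in each alternative. The exceptions were Asa3G02784.1 and Asa7G02774.1, which voom on recovered reads did not call (adjusted p = 0.12 and 0.084, with interactions of 4.60 and -4.51). The counts of positive and negative calls, of those of at least 1, of opposite movement and of reversed differences stayed within 1.5 times the reported ones except for 1534 positive interactions of at least 1 with voom (2329 reported) and 914 genes moved in opposite directions at equal depth (1385 reported). Finer counts moved more. At 3 or more, 61 positive and 11 negative calls became 225 and 72 with voom and 464 and 63 with a pseudocount of 0.1, and the 11 became 17 without storage enlarging replicate 3. Of genes called in storage clove only, the 1485 falls and 565 rises became 696 and 347 with voom. Of opposite movements, 854 with a basal rise and 531 with a storage rise became 552 and 521 with voom, 589 and 325 at equal depth, and 1082 and 852 when the 12 libraries were fitted alone. Among genes under 1 FPKM, 246 positive and 48 negative calls became 76 and 39 with voom and 126 and 88 with quantile normalization. The larger shifts of forms under other scalings stand beside those forms. Leaving out single libraries gave 4494 to 5226 positive and 2726 to 3227 negative calls. The replicate block gave 8473 calls in all (5237 positive). Over all pairs of groups, deviations of same-numbered libraries correlated between -0.238 and 0.239, and 7 of 18 libraries were nearest to their own number. Pairs of basal and storage clove of the same stage were not read apart, and the replicate block fits one effect of the number over all stages. Whether the numbers pair the tissues within a stage was therefore not tested, and the model took the libraries as unpaired. Dormant storage clove was the shallowest group. Equal depth, which removes reads mainly from the other groups, gave 6753 calls.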
